A study of Mus musculus with 235 samples.

Results

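The response of the liver to isoniazid was examined in C57BLKS/J mice, the strain with the 8 arrays described here out of 235 arrays from 31 inbred strains. The members are the 4 arrays labelled as treated C57BLKS/J animals and the 4 labelled as control animals of the same strain, 1 array per animal. All were female mice, 8 to 10 weeks old at the start. The treated animals received isoniazid at 100 mg/kg and the control animals sterile water, given daily by oral gavage over 3 days, and the left liver lobe was taken 24 h after the final dose. The submitters coded C57BLKS/J as 1 of 13 strains that developed steatosis under isoniazid. The other 30 strains supply 227 arrays, treated in the same way, as the reference for what isoniazid did elsewhere.

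C57BLKS/J is an inbred strain derived mainly from C57BL/6J with a contribution from DBA/2J, and is widely used as a background for mutations that cause obesity and diabetes. Isoniazid is an antibiotic against tuberculosis that is acetylated and hydrolysed in hepatocytes and can injure the liver. It reacts with pyridoxal phosphate, the active form of vitamin B6, which is the cofactor of aminotransferases, of several decarboxylases and of the first enzyme of heme synthesis. The liver also holds Kupffer cells, its resident macrophages, which take up particles and dead cells and respond to interferons, secreted proteins that switch on antiviral genes.

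The 8 arrays were alike in quality. Their medians lay between 4.00 and 4.06 log2 units, arrays of the same group correlated at Pearson r of 0.987 to 0.994 across genes, and all 8 resembled their own strain more than any other of the 31. None belonged to the 21 arrays of the series whose log2 values had a narrower spread. The hepatocyte genes Alb (albumin) and Apoa1 (the main protein of high-density lipoprotein) lay between 14.33 and 14.47 and between 14.16 and 14.30, near the top of the scale in every animal. The labels give scan dates but no extraction batch. Vehicle animal 3 shared scan 1 with isoniazid animals 1 and 4, and vehicle animal 2 shared scan 3 with isoniazid animal 3, while the other 3 animals were scanned on dates of their own within the strain.

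Vehicle animal 1 stood apart from the other 7. Its X-inactivation transcript Xist read 10.34, inside the range of 10.25 to 10.74 of all 8 animals, and the Y-linked genes Eif2s3y, Kdm5d and Uty were as low as in the others. Its liver, however, read unlike the other 7 in genes that differ between the sexes. Sult3a1, a sulfotransferase of female mouse liver, read 5.39 in this animal and 12.28 to 12.78 in the other 7. Cyp4a12a, a fatty acid hydroxylase of male liver, read 8.14 against 2.79 to 3.82. Hsd3b5, a steroid dehydrogenase of male liver, read 5.79 against 2.67 to 4.00. In this animal 183 genes lay more than 1 log2 unit from the mean of the other 3 of its group. The same number was 44, 50 and 70 for vehicle animals 2 to 4 and 30, 148, 64 and 83 for isoniazid animals 1 to 4. Several results that rest on vehicle animal 1 are therefore given with and without it, though not all.

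**Figure D1:**
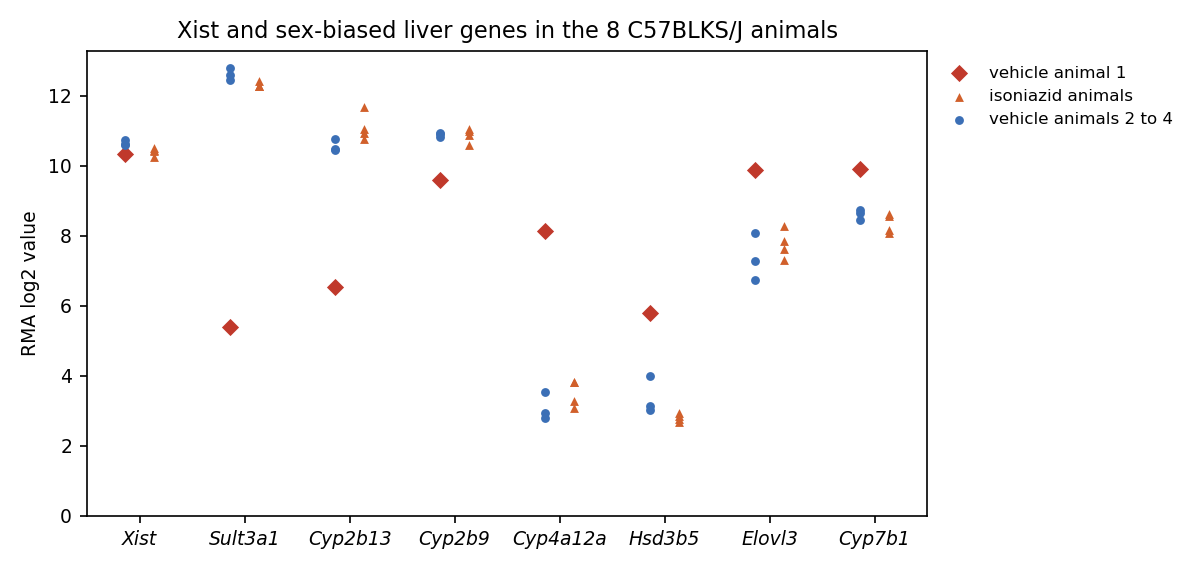
RMA log2 values (y axis) of Xist and 7 sex-biased liver genes (x axis) in the 8 C57BLKS/J animals, 1 point per animal; the red diamond is vehicle animal 1, blue circles are vehicle animals 2 to 4 and orange triangles the 4 isoniazid animals. Vehicle animal 1 matches the others in Xist but reads 5.39 in Sult3a1, where the other 7 read 12.28 to 12.78, and 8.14 in Cyp4a12a, where they read 2.79 to 3.82.

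The first comparison asked which genes isoniazid changed in C57BLKS/J liver. Of 18146 genes, 168 (0.926%) differed between the 4 isoniazid and the 4 vehicle animals at an adjusted p under 0.05 in limma, 78 of them higher (0.430%) and 90 lower (0.496%). The largest rise was in a sulfotransferase that inactivates estrogens, followed by Thrsp, Dbp and Cidec, genes of lipogenesis, clock output and fat storage. The largest falls were in the taurine synthesis enzyme Csad, in interferon-induced genes and in thioesterases of fatty acid oxidation. Of 16 macrophage markers 8 fell, a count that was 0 without vehicle animal 4 and 1 without isoniazid animal 2 or 3. Differences are isoniazid minus vehicle on the log2 scale, with the standard error of the fit, so that 1 is a doubling.

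Of the 168 genes, 53 rose and 77 fell at least 1.5-fold, and in 152 the groups did not overlap, against 8.61% of all genes. All 168 had the same sign within scan 1 and within scan 3 as over all 8 animals. The mean of the other 30 strains had the same sign for 164 of the 168, and 163 of these lay further from 0 in C57BLKS/J. These counts, those of overlap and of sign within scans included, are descriptions. The genes were picked for a large change in these same 8 animals. With each array centred on its median, the split was 126 higher and 89 lower. A fit of the 8 arrays alone called 202 genes, 62 higher and 140 lower, of which 97 were among the 168. Without vehicle animal 1, 104 genes were called, 33 higher and 71 lower, of which 89 were among the 168. Leaving out vehicle animals 2 or 4 or isoniazid animals 2, 3 or 4 left 92, 57, 80, 66 and 73 calls.

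**Figure D2:**
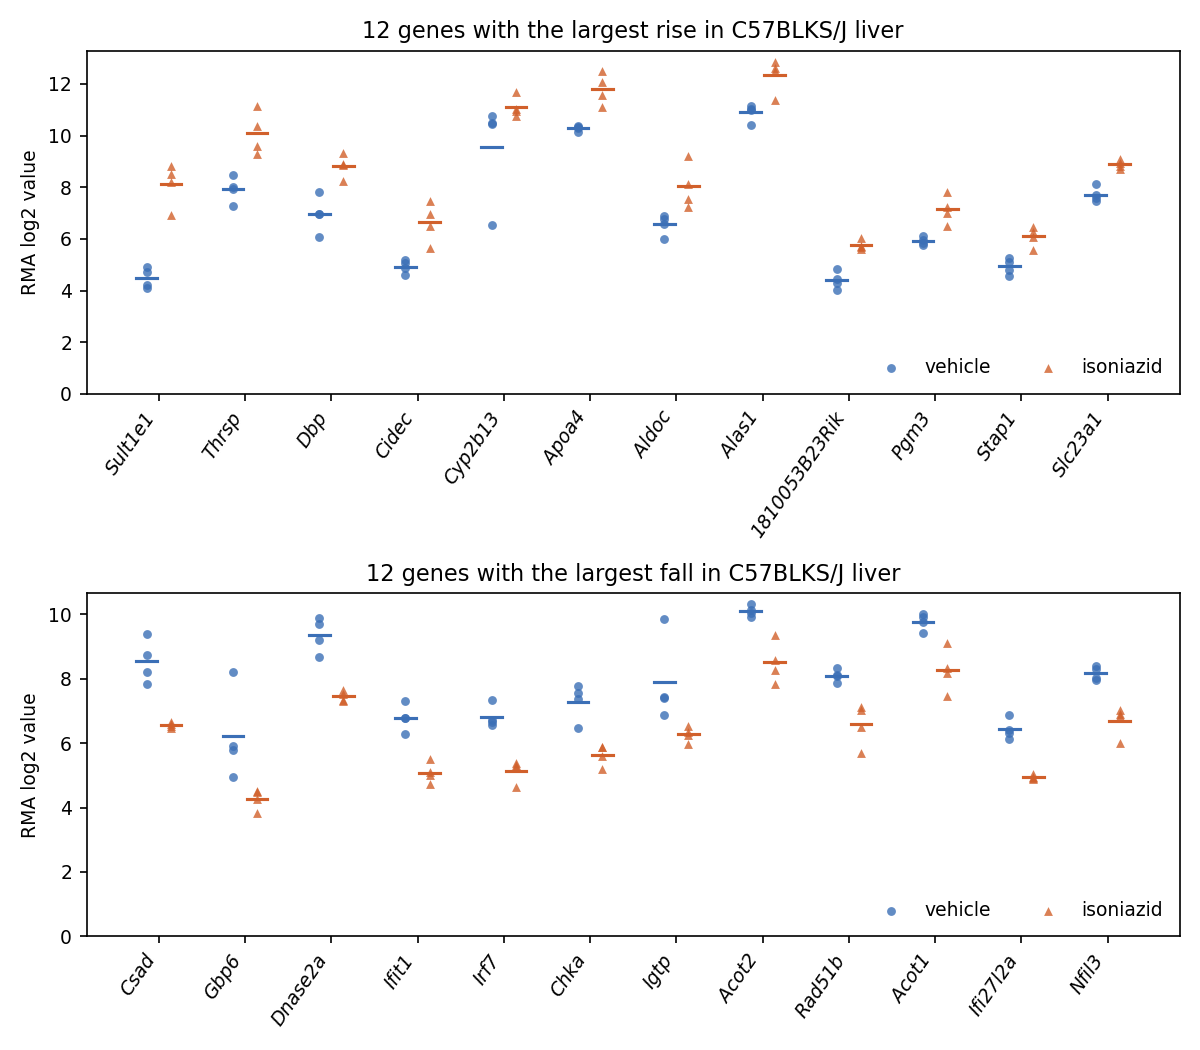
RMA log2 values (y axis) of the 12 genes with the largest rises (top) and the 12 with the largest falls (bottom) in C57BLKS/J liver, 1 point per animal, 4 vehicle (blue circles) and 4 isoniazid (orange triangles); the short line is the group mean. The groups do not overlap in any of these genes, which was part of the rule that chose them, and vehicle animal 1 at 6.53 in Cyp2b13 and vehicle animal 4 at 8.22 in Gbp6 stand away from their groups.

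Sult1e1, the sulfotransferase that inactivates estrogens, showed the largest change in either direction. It read 4.08, 4.92, 4.21 and 4.73 in vehicle animals 1 to 4 and 6.91, 8.50, 8.22 and 8.84 in isoniazid animals 1 to 4. Every isoniazid animal lay about 2 log2 units or more above every vehicle animal, and animal 1 was the lowest of the treated group. The rise was 3.63 ± 0.64 (SE, n = 4 per group), or 12.4-fold, with an adjusted p of 0.000166. It was 3.30 within scan 3 and 3.66 within scan 1.

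Single genes of fat handling also rose, while most members of the lipid lists did not pass. Cidec, a protein that fuses lipid droplets in fat-storing cells, read 5.07, 4.86, 5.17 and 4.59 under vehicle and 6.49, 5.64, 6.96 and 7.46 under isoniazid, a rise of 1.72 ± 0.37 (adjusted p = 0.00422). The call was lost without isoniazid animal 4, the highest of the group. Thrsp, a nuclear regulator of lipogenic enzymes, read 7.91, 7.27, 8.03 and 8.48 against 10.36, 11.13, 9.61 and 9.27, a rise of 2.17 ± 0.52 (adjusted p = 0.0135). The groups were separate, with isoniazid animal 2 the highest, and its call was lost without that animal or without vehicle animal 2. Of its 3 probe sets the lowest changed by -0.12, and the mean of the 3 rose by 1.36 (adjusted p = 0.0187).

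Among the apolipoproteins, Apoa4 and Apoc2 rose. Apoa4, an apolipoprotein of triglyceride-rich particles, read 10.12, 10.33, 10.38 and 10.29 under vehicle and 11.56, 11.10, 12.08 and 12.49 under isoniazid. Its rise of 1.52 ± 0.25 (adjusted p = 0.000107) was 2.87-fold, and the vehicle animals were close together while the treated ones spread. Apoc2, the activator of lipoprotein lipase, read 10.94 to 11.24 and 11.65 to 11.87, a rise of 0.71 ± 0.13 (adjusted p = 0.000313). Of the 18 measured genes of lipoprotein assembly and uptake, these 2 rose and none fell, against 0.43% of all genes called higher. Of the 18, 10 had a positive and 8 a negative difference, and the median was 0.04.

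Cd36, a fatty acid receptor of the cell surface, read 6.34, 7.88, 6.80 and 7.81 under vehicle and 8.86, 8.63, 8.72 and 7.86 under isoniazid. The rise was 1.31 ± 0.30 (adjusted p = 0.00869), the highest of the 31 strains, although isoniazid animal 4 lay among the vehicle animals. It was 1.02 without vehicle animal 1 (adjusted p = 0.133). The Cd36 difference from the mean effect of the other 30 strains did not pass in limma (adjusted p = 0.0778). Cpt1a, which carries fatty acids into mitochondria, rose by 0.61 ± 0.13 (adjusted p = 0.00607), and was not called without vehicle animal 4. Against these, the acyl-CoA thioesterases Acot2 and Acot1 fell. Acot2 read 10.04, 9.93, 10.12 and 10.32 under vehicle and 9.35, 8.28, 8.57 and 7.85 under isoniazid, a change of -1.59 ± 0.38 (adjusted p = 0.0131). With the mean of its probe sets the change was -0.90 (adjusted p = 0.117), and the call was lost without vehicle animal 4 or isoniazid animals 2 or 4.

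Acot1 was 2.83-fold lower (adjusted p = 0.0343), and its call was lost in 6 of the 8 sets with 1 animal left out. Acot1 and Acot2 are near-identical neighbours, so their signals may not be fully separate. The 29 measured targets of PPARα, the receptor that switches on fatty acid oxidation, thus had 2 members higher and 2 lower with a median of 0.02. Of all genes, 0.43% were called higher and 0.496% lower. In a fit of the 8 arrays alone Cd36 and Cpt1a were not called, with 0 members higher and 2 lower. The median of all genes was -0.01.

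Fatty acid synthesis gave 2 of 21 members called, both higher, Thrsp and Elovl6, against 0.43% of all genes called higher. Elovl6, which lengthens palmitate, read 6.50, 6.58, 7.01 and 6.60 under vehicle and 7.65, 7.99, 7.63 and 7.64 under isoniazid, a rise of 1.05 ± 0.26 (adjusted p = 0.0198). The mean of its probe sets was not called, and the call was lost without vehicle animals 1, 2 or 4 or isoniazid animal 2. Fasn, fatty acid synthase, read higher in all 4 treated animals (7.40 to 8.51) than in the vehicle animals (6.91 to 7.30), but the difference of 0.66 ± 0.25 did not pass (adjusted p = 0.273). Scd1, the desaturase of fatty acid synthesis, ran the other way, at 12.65, 12.02, 11.83 and 12.20 against 11.24, 11.88, 11.09 and 10.33, and its difference of -1.04 ± 0.45 did not pass either (adjusted p = 0.439). Plin2, the coat protein of lipid droplets, differed by 0.11 ± 0.21 (adjusted p = 0.981), with levels of 12.15 to 12.48 in all animals. Of the 24 measured lipid droplet genes Cidec alone was called.

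Cholesterol synthesis genes read higher but were called in 1 case only, against 0.43% of all genes called higher. Of 21 measured members, 20 had a positive difference and 1 a negative one, the median was 0.43, and in 10 the treated animals all lay above the vehicle animals, against 3.66% of all genes. Dhcr7, the last enzyme of the pathway, rose by 0.89 ± 0.21 (adjusted p = 0.0132), from 6.47 to 6.88 under vehicle to 7.23 to 7.92 under isoniazid, and was not called without vehicle animal 4 or isoniazid animal 2. Idi1 and Msmo1, enzymes of the middle of the pathway, read 2.83-fold higher (adjusted p = 0.155) and 1.53 ± 0.45 log2 units higher (adjusted p = 0.0703) without passing. Sqle, squalene epoxidase, had 1.32 ± 0.50 (adjusted p = 0.270). With each array centred on its median 2 members were called, and in a fit of the 8 arrays alone 7 were.

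Enzymes that bind vitamin B6 moved in both directions. Csad, the cysteine sulfinate decarboxylase that leads to taurine, read 9.37, 8.20, 8.74 and 7.82 under vehicle and 6.54, 6.59, 6.65 and 6.46 under isoniazid. The treated animals lay close together, while the vehicle animals spread widely, and the change of -1.97 ± 0.40 (adjusted p = 0.00272) was a 3.92-fold fall. The mean effect of the other 30 strains was -1.37. Alas1, the first and rate-limiting enzyme of heme synthesis, read 11.15, 11.01, 11.02 and 10.43 against 12.62, 11.37, 12.48 and 12.85. It rose by 1.43 ± 0.32 (adjusted p = 0.00741), and isoniazid animal 2 rose least. Its call was lost without vehicle animal 4 or isoniazid animal 4.

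Agxt2, a mitochondrial aminotransferase, rose by 0.64 ± 0.15 (adjusted p = 0.0132), from 7.81 to 8.46 under vehicle to 8.60 to 8.99 under isoniazid, and was not called without vehicle animals 1 or 3 or isoniazid animal 2. Of 33 measured B6 enzymes and B6 handling genes, Alas1 and Agxt2 were higher and Csad lower, and the median was 0.13. Of all genes, 0.43% were called higher and 0.496% lower. Psat1, the aminotransferase of serine synthesis, was not called (1.91 ± 0.70, adjusted p = 0.241). It read 1.68, 1.94, 3.61 and 1.92 under vehicle and 3.11, 3.41, 3.20 and 7.06 under isoniazid, and the difference was 0.95 without isoniazid animal 4 (adjusted p = 0.879). Among 13 genes of taurine and sulfur amino acid metabolism, the betaine homocysteine methyltransferases Bhmt and Bhmt2 and the glycine methyltransferase Gnmt rose by 0.53, 0.38 and 0.32. These are small steps at high levels; Gnmt read 13.30 to 13.36 under vehicle and 13.63 to 13.68 under isoniazid (adjusted p = 0.0139). Its call was lost without vehicle animal 4 or isoniazid animal 3. The calls of Bhmt and Bhmt2 were each lost in most of the sets with 1 animal left out.

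Few drug-metabolising genes were called. Of 26 measured targets of the xenobiotic receptors CAR and PXR, 3 were called higher, against 0.43% of all genes, and 0 lower. Their differences ran from -1.24 to 1.56, with a median of 0.15. Aldh1a7, an aldehyde dehydrogenase, rose by 0.82 ± 0.21 (adjusted p = 0.0267), from 9.84 to 10.32 to 10.77 to 10.96, and was called in 1 of the 8 sets with 1 animal left out. The other 2, Cyp2b13 and Cyp2c39, are cytochromes that depend on vehicle animal 1. Cyp2b13 read 6.53 in that animal and 10.44 to 10.75 in the other 3, against 10.76 to 11.68 under isoniazid. Its rise was 1.56 ± 0.43 (adjusted p = 0.0411) with all 8 animals and 0.55 without vehicle animal 1 (adjusted p = 0.945). Cyp2c39 rose by 0.80 ± 0.21 (adjusted p = 0.0253) and differed by 0.42 without that animal (adjusted p = 0.706). Leaving out isoniazid animals 1, 2 or 3 also ended both calls.

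Cyp2b10, the usual marker of CAR activation, was not called (0.79 ± 0.49, adjusted p = 0.741). Cyp2e1, the cytochrome that oxidises isoniazid metabolites, lay between 13.52 and 13.72 in all 8 animals (-0.04 ± 0.06, adjusted p = 0.969). Nat2, an arylamine acetyltransferase, had a difference of 0.40 ± 0.16 (adjusted p = 0.330), and no member of the list of 13 isoniazid metabolism genes passed. Lists of NRF2 targets (22 genes measured), the integrated stress response (27), p53 targets (17), the cell cycle (21), heat shock proteins (12) and the proteasome (25) had no gene called in either direction. Their medians lay between -0.22 and -0.01. The median of the members' mean effects in the other 30 strains was 0.18 for the proteasome and 0.05 for heat shock proteins. For the other lists it lay between -0.08 and 0.01. The C57BLKS/J effect was below the mean of the others in 24 of 25 proteasome genes and all 12 heat shock genes. None of these differences passed.

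Several genes outside these lists stood among the 24 largest changes. Slc23a1, a sodium-dependent vitamin C transporter, read 7.59, 7.71, 8.11 and 7.46 against 8.82, 8.70, 8.92 and 9.09, a rise of 1.17 ± 0.20 (adjusted p = 0.000166). Aldoc, a fructose-bisphosphate aldolase, read 6.90, 6.00, 6.76 and 6.59 against 8.11, 9.20, 7.56 and 7.25. It rose by 1.47 ± 0.28 (adjusted p = 0.000476), the highest of the 31 strains, led by isoniazid animal 2, without which it was not called. The Aldoc difference from the mean effect of the other 30 strains did not pass in limma (adjusted p = 0.0530). Pgm3, an enzyme of hexosamine synthesis, rose by 1.23 ± 0.26 (adjusted p = 0.00404). Stap1, an adaptor protein, rose by 1.17 ± 0.28 (adjusted p = 0.0162), and 1810053B23Rik, which has no named function here, by 1.37 ± 0.33 (adjusted p = 0.0143).

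Among the falls, Dnase2a, the lysosomal nuclease that digests the DNA of engulfed cells, read 9.88, 9.19, 9.71 and 8.66 under vehicle and 7.65, 7.52, 7.29 and 7.33 under isoniazid. The groups were more than 1 log2 unit apart, and the change of -1.91 ± 0.38 (adjusted p = 0.00113) was a 3.76-fold fall. Chka, a choline kinase of phosphatidylcholine synthesis, changed by -1.65 ± 0.30 (adjusted p = 0.000264), the lowest of the 31 strains. The Chka difference from the mean effect of the other 30 strains did not pass in limma (adjusted p = 0.138). Rad51b, a gene of homologous recombination, fell 2.83-fold (adjusted p = 0.00622), while its second probe set changed by 0.12, and it was not called without isoniazid animal 2. The calls of Sult1e1, Apoa4, Slc23a1, Csad, Dnase2a, Irf7, Chka and Ifi27l2a held in each of the 16 other settings in which an effect was fitted. Of the other 16 of these 24 genes, each lost its call in at least 1.

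Clock output genes changed in opposite directions. Dbp, a transcription factor at the output of the clock, read 6.09, 6.97, 7.82 and 6.98 under vehicle and 8.86, 9.32, 8.89 and 8.23 under isoniazid, a rise of 1.86 ± 0.44 (adjusted p = 0.0131). Nfil3, a repressor that competes with Dbp for the same sites, read 8.01, 8.38, 7.94 and 8.31 against 6.91, 7.01, 6.86 and 6.00, a change of -1.47 ± 0.33 (adjusted p = 0.00741). Its effect was the lowest of the 31 strains, whose mean without C57BLKS/J was -0.17. The difference from that mean did not pass in limma (adjusted p = 0.138). Arntl, the core activator of the clock, read 6.17 to 6.95 and 4.97 to 5.74 without passing (-1.24 ± 0.36, adjusted p = 0.0681).

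Per2 and Per3, repressors of the clock, had differences of 1.02 ± 0.38 (adjusted p = 0.261) and 0.82 ± 0.31 (adjusted p = 0.260). Of 19 measured clock genes 1 was called in each direction, against 0.43% of all genes called higher and 0.496% lower. The labels used here give no time of day, so that time of sampling and treatment cannot be told apart. Dbp was not called without vehicle animal 1 or isoniazid animal 2, and Nfil3 was not called without isoniazid animal 4.

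Among macrophage markers the called genes were all lower. Of 16 markers, all measured, 8 were called lower and 0 higher, against 0.496% of all genes called lower. The 8 were Adgre1, Clec4f, Cd5l, C1qa, C1qb, C1qc, Csf1r and Lyz2, and 14 of the 16 had a negative difference. In 11 the treated animals all lay below the vehicle animals, against 4.95% of all genes. The median of the list was -1.12 in C57BLKS/J, and the median over the members' mean effects in the other 30 strains was -0.18. In 10 of the 16 C57BLKS/J had the lowest effect of the 31 strains. The list is a fixed set of markers, but it was written with earlier results of these data known.

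Adgre1, the F4/80 surface receptor of macrophages, read 6.71, 7.44, 7.33 and 7.89 in vehicle animals 1 to 4 and 6.22, 5.81, 5.85 and 6.24 in isoniazid animals 1 to 4. The change of -1.31 ± 0.28 (adjusted p = 0.00477) was a 2.48-fold fall. Clec4f, a lectin that among mouse liver cells marks Kupffer cells, read 8.22, 8.46, 8.51 and 8.72 against 7.55, 7.17, 7.24 and 7.53, a change of -1.11 ± 0.26 (adjusted p = 0.0115). Cd5l, a protein secreted by macrophages, read 9.46, 9.89, 9.68 and 10.56 against 8.77, 8.38, 8.48 and 8.91, a change of -1.26 ± 0.31 (adjusted p = 0.0199). In all 3 genes the groups were separate, vehicle animal 4 was the highest and isoniazid animals 2 and 3 were the lowest.

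The complement genes C1qa, C1qb and C1qc, made by macrophages, changed by -1.29, -1.13 and -1.11 (adjusted p = 0.0284, 0.0376 and 0.0325). Csf1r, the receptor for the growth factor that macrophages depend on, changed by -1.08 ± 0.28 (adjusted p = 0.0304), and Lyz2, lysozyme, by -1.16 ± 0.31 (adjusted p = 0.0316). Timd4 and Marco, a receptor for dead cells and a scavenger receptor, had differences of -1.23 ± 0.39 (adjusted p = 0.108) and -1.39 ± 0.47 (adjusted p = 0.167) without passing. Marco read 5.64 in vehicle animal 1, within the treated range of 5.14 to 5.96. Itgam and Ccr2, which mark incoming monocytes, had differences of 0.14 ± 0.16 and 0.19 ± 0.23 (adjusted p = 0.925 and 0.937).

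The mean log2 level over the 16 markers was 6.83, 7.30, 7.25 and 7.76 in vehicle animals 1 to 4 and 6.55, 6.05, 6.11 and 6.54 in isoniazid animals 1 to 4. On this scale the groups did not overlap. C57BLKS/J ranked 7 of 31 strains, counted from the highest, in its vehicle animals and 27 of 31 in its isoniazid animals. The call depended on single animals: without vehicle animal 4 none of the 8 passed, without vehicle animals 2 or 3 the count was 2 and 4, and without isoniazid animals 2 or 3 it was 1 each. The list median moved less, lying between -1.27 and -0.99 over the 8 sets with 1 animal left out. Fewer macrophages in the tissue and less of these RNAs per macrophage cannot be told apart in whole liver.

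Other genes of phagocytes were among the 90 that fell, named here after their values were seen. They include Folr2, a folate receptor of tissue macrophages (-0.98), Cfp, the complement protein properdin (-1.19), and the NADPH oxidase subunits Cybb, Ncf1 and Cyba (-1.10, -1.24 and -0.91). Each lost its call without vehicle animal 4 or isoniazid animal 3. No marker of endothelial, stellate, bile duct or neutrophil cells was called. All 14 endothelial, all 9 measured stellate and all 6 measured bile duct markers had a negative difference, with medians of -0.25, -0.31 and -0.17. In 3 of the 9 stellate markers the treated animals all lay below the vehicle animals, against 4.95% of all genes. The 11 measured neutrophil markers had a median of 0.07. The part of these shifts in the macrophage result was not tested. Among 9 measured hepatocyte markers 1 was called lower, against 0.496% of all genes. This was Hnf4a, a transcription factor of hepatocytes (-0.39 ± 0.11, adjusted p = 0.0404), which lost its call in most settings, median centring included.

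**Figure D3:**
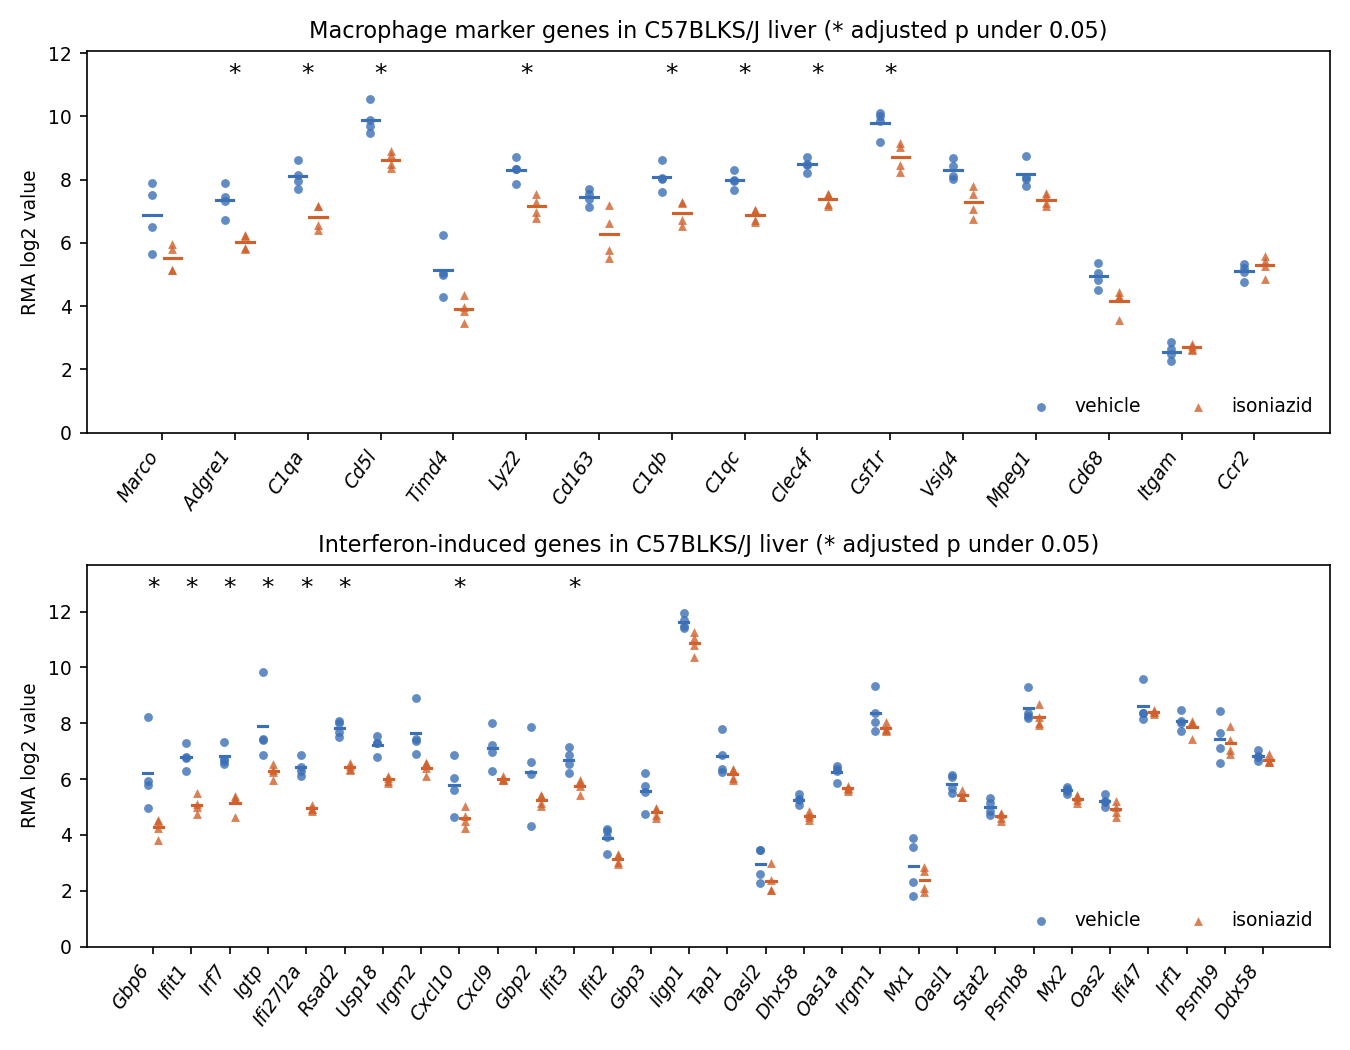
RMA log2 values (y axis) of 16 macrophage markers (top) and 30 interferon-induced genes (bottom), ordered by their difference, in 4 vehicle (blue circles) and 4 isoniazid (orange triangles) C57BLKS/J animals; short lines are group means and a star marks an adjusted p under 0.05. Of the macrophage markers 14 of 16 and of the interferon-induced genes 30 of 30 have the lower mean under isoniazid, and vehicle animal 4 is high in Gbp6 (8.22) and Igtp (9.85).

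Interferon-induced genes also read lower. Of 34 listed genes 30 were measured, and all 30 had a negative difference, with a median of -0.70. Of the 30, 8 were called lower, against 0.496% of all genes, and 0 higher. The median of the members' mean effects in the other 30 strains was -0.25. The 8 were Gbp6, Ifit1, Irf7, Igtp, Ifi27l2a, Rsad2, Cxcl10 and Ifit3. Among the 31 strains the list median of C57BLKS/J was the third lowest, after BALB/cJ at -0.79 and 1 other strain.

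Irf7, the transcription factor that amplifies the interferon response, read 6.55, 6.72, 6.64 and 7.34 under vehicle and 5.38, 5.25, 4.63 and 5.31 under isoniazid. Its change of -1.67 ± 0.30 (adjusted p = 0.000264) was the lowest of the 31 strains. Ifi27l2a, an interferon-induced membrane protein, read 6.12, 6.30, 6.42 and 6.87 against 5.05, 4.93, 4.87 and 4.93, a change of -1.48 ± 0.29 (adjusted p = 0.000991). For both genes the treated animals lay more than 1 log2 unit below the lowest vehicle animal, and both calls held without any single animal.

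Rsad2 (viperin), an enzyme that blocks virus replication, read 7.68, 8.09, 8.02 and 7.51 against 6.46, 6.59, 6.35 and 6.32 (-1.40 ± 0.29, adjusted p = 0.00404). Ifit1, which binds viral RNA, read 6.29, 6.77, 7.29 and 6.79 against 4.73 to 5.49 (-1.70 ± 0.40, adjusted p = 0.0131). Both were lower in each treated animal than in any vehicle animal, and the Ifit1 call was lost without vehicle animal 3 or isoniazid animal 4. The GTPases Gbp6 and Igtp, effectors of interferon gamma, depended on vehicle animal 4. Gbp6 read 4.96, 5.92, 5.79 and 8.22 against 4.49, 4.53, 4.25 and 3.82, and its change was -1.95 ± 0.48 (adjusted p = 0.0187) and -1.29 without that animal (adjusted p = 0.421). Igtp changed by -1.62 ± 0.42 (adjusted p = 0.0267), and by -0.96 without vehicle animal 4 (adjusted p = 0.582). Both calls were also lost without isoniazid animals 3 or 4. Cxcl10, a chemokine for T cells, read 4.63 in vehicle animal 1, below isoniazid animals 1 and 4 (5.02 and 4.66), so that its groups overlapped. Its call and that of Ifit3 were each lost in at least 6 of the 8 sets with 1 animal left out.

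The mean level over the 30 genes was 6.03, 6.61, 6.57 and 7.11 in vehicle animals 1 to 4 and 5.82, 5.87, 5.74 and 5.63 in isoniazid animals 1 to 4. The vehicle animals spread over more than 1 log2 unit while the treated animals were close together. The vehicle mean ranked 3 of 31 strains from the highest, and the isoniazid mean 15 of 31. Without vehicle animal 4 the count was 4 and the median -0.59, and without isoniazid animal 4 the count was 3. Genes of antigen presentation by MHC class II, which interferon gamma also induces, had 0 of 7 members called and a median of -0.73. H2-Ab1, a class II chain, read 6.23, 7.16, 6.38 and 8.05 against 5.66, 5.49, 6.03 and 5.78 (-1.22 ± 0.51, adjusted p = 0.385). Among the vehicle animals, animal 4 was the highest and animal 1 the lowest for both the macrophage and the interferon list. Among the treated animals the order differed, animal 2 being the lowest for macrophage markers and the highest for interferon genes. The part of cell numbers in the interferon result was not tested.

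The promoters of these genes were searched for a simple form of the interferon-stimulated response element, the sequence that interferon regulatory factors bind. The letters searched were GAAANNGAAA on both strands (TTTCNNTTTC on the other), in RefSeq windows of 300 bases around the start of each gene (build GRCm38.p6), 250 before and 50 after it. Of the 30 measured genes 22 have a window in the table, and 12 of these hold the letters. Among the 8 called genes 6 have a window and 5 hold them, and among the 22 not called 16 have a window and 7 hold them. Over all 32851 windows the share was 3.44%. Irf7 has a window without these letters. A match is a run of letters and not a measured binding site. The 250 bases before the start are shown for 4 genes that fell, because they differ in where the match lies, with the matches in capitals. Rsad2 lies at chr12:26456453-26456702 on the minus strand, Ifit1 at chr19:34640639-34640888 on the plus strand, Igtp at chr11:58199306-58199555 on the plus strand and Cxcl10 at chr5:92348890-92349139 on the minus strand.
Rsad2: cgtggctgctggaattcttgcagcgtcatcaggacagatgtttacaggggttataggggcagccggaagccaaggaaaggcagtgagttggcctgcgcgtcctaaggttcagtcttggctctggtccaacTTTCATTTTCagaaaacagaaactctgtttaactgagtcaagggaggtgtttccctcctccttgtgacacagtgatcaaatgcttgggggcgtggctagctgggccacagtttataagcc
Ifit1: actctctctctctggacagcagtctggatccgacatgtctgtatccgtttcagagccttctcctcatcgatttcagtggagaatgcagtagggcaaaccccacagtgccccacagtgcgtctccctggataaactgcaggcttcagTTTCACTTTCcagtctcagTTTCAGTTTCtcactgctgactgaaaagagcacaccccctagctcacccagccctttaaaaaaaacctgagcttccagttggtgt
Igtp: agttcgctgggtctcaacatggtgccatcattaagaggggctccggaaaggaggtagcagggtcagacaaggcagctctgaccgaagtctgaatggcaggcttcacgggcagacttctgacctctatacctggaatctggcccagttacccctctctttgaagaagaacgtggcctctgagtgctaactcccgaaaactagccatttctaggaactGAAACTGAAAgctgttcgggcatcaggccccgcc
Cxcl10: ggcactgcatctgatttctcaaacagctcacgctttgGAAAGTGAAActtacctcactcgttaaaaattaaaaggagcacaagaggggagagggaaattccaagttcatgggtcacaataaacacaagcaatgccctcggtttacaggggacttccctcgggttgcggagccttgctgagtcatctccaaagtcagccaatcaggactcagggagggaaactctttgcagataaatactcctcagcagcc

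The match began 34 bases before the start in Igtp, 120 in Rsad2 and 213 in Cxcl10, and Ifit1 held 2, at 104 and 85 bases before it. Of these 4 genes Ifit1 changed by -1.70, Igtp by -1.62, Rsad2 by -1.40 and Cxcl10 by -1.17.

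Genes of oxidative phosphorylation read higher by small amounts, and single genes of iron handling, the acute phase and bile acid synthesis changed. Of 32 measured genes of oxidative phosphorylation, 27 had a positive difference, and the median was 0.16. The median of the members' mean effects elsewhere was 0.11. Called higher were 2, against 0.43% of all genes, Atp5o (0.31 ± 0.08, adjusted p = 0.0222) and Cycs (0.45 ± 0.12, adjusted p = 0.0318). Each call was lost in at least 5 of the 8 sets with 1 animal left out. Slc40a1, the iron exporter ferroportin, changed by -0.61 ± 0.15 (adjusted p = 0.0205). Lbp, an acute phase protein that binds bacterial lipopolysaccharide, changed by -0.63 ± 0.16 (adjusted p = 0.0253). It was the single member called among 29 measured in its list, against 0.496% of all genes called lower. The median of that list was -0.03. Cyp2c70, which makes the muricholic acids of the mouse, changed by -0.92 ± 0.25 (adjusted p = 0.0367), and Cyp7a1, which starts the classic route from cholesterol to bile acids, had a difference of 1.37 ± 0.43 that did not pass (adjusted p = 0.105). The calls of Slc40a1, Lbp and Cyp2c70 were each lost in at least 4 of the 8 sets with 1 animal left out.

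The second comparison asked where C57BLKS/J differed from the other strains. Its effect was tested against the mean effect of the other 30, and 7 of 18146 genes differed (0.0386%), 3 above (0.0165%) and 4 below (0.022%), with 839 at an unadjusted p under 0.05. Sult1e1 rose further than elsewhere. Irf7, Ifi27l2a, Tacc2 and C6 fell further, and Gm7969 and Serpinb3a read higher. In each of the 7 C57BLKS/J lay outside the range of the other 30 strains. For other leading genes the mean effect of the other 30 was -1.37 for Csad, -1.21 for Dnase2a, -1.16 for Acot1 and -1.08 for Acot2. It was 0.97 for Cidec, 0.90 for Apoa4, 0.78 for Alas1 and 0.61 for Apoc2, but 0.17 for Thrsp and 0.12 for Dbp. None of these other genes passed this test.

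The Sult1e1 effect of 3.63 stood against a mean of 0.21 in the other 30, where single strains ran from -1.60 to 2.49. The difference of 3.42 had an adjusted p of 0.00377 and held without any single C57BLKS/J animal, with differences of 3.18 to 3.83. Irf7 differed by -1.39 from a mean of -0.28 (adjusted p = 0.0306), with single strains from -1.24 to 0.37. Ifi27l2a differed by -1.34 from a mean of -0.14 (adjusted p = 0.0284). Without vehicle animal 4 the differences were -1.22 and -1.19 (adjusted p = 0.367 and 0.281). The Irf7 call was also lost without vehicle animal 2 or isoniazid animals 2 or 3, and with scan date as a term (adjusted p = 0.0685). The Ifi27l2a call held in 1 of the 8 sets with 1 animal left out, that without vehicle animal 1.

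Tacc2, a protein of the centrosome and microtubules, read 8.26, 7.90, 7.94 and 8.67 under vehicle and 7.06, 7.08, 6.60 and 6.37 under isoniazid. Its effect of -1.42 differed by -1.24 from the mean of the others (adjusted p = 0.00852), and the difference was not called without vehicle animal 4 or isoniazid animals 3 or 4. C6, a component of the complement attack complex, read 7.68 in vehicle animal 1 and 5.68 to 6.44 in the other 3, against 4.84 to 5.64 under isoniazid. Its difference of -1.14 (adjusted p = 0.0221) was -0.74 without vehicle animal 1 (adjusted p = 0.627). The call was also lost without vehicle animal 4 or isoniazid animals 2 or 3 (adjusted p = 0.0618, 0.368 and 0.140).

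Gm7969, a predicted gene, read 5.73, 6.22, 6.24 and 5.82 against 6.76, 7.00, 6.49 and 6.67. It differed by 0.73 (adjusted p = 0.000172) and was called in each set with 1 animal left out. It was among the genes under the 40th percentile, so it was not tested where dim genes were left out. Serpinb3a, a protease inhibitor, read 2.34, 2.36, 3.54 and 2.65 under isoniazid and lower than these in each vehicle animal, near the bottom of the scale. Its difference of 0.63 (adjusted p = 0.0161) was 0.36 without isoniazid animal 3 (adjusted p = 0.935), and the call was also lost without vehicle animals 1 or 2 (adjusted p = 0.0506 and 0.0713). No macrophage marker passed this test, the closest being Adgre1 with a difference of -1.21 (adjusted p = 0.0692).

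**Figure D4:**
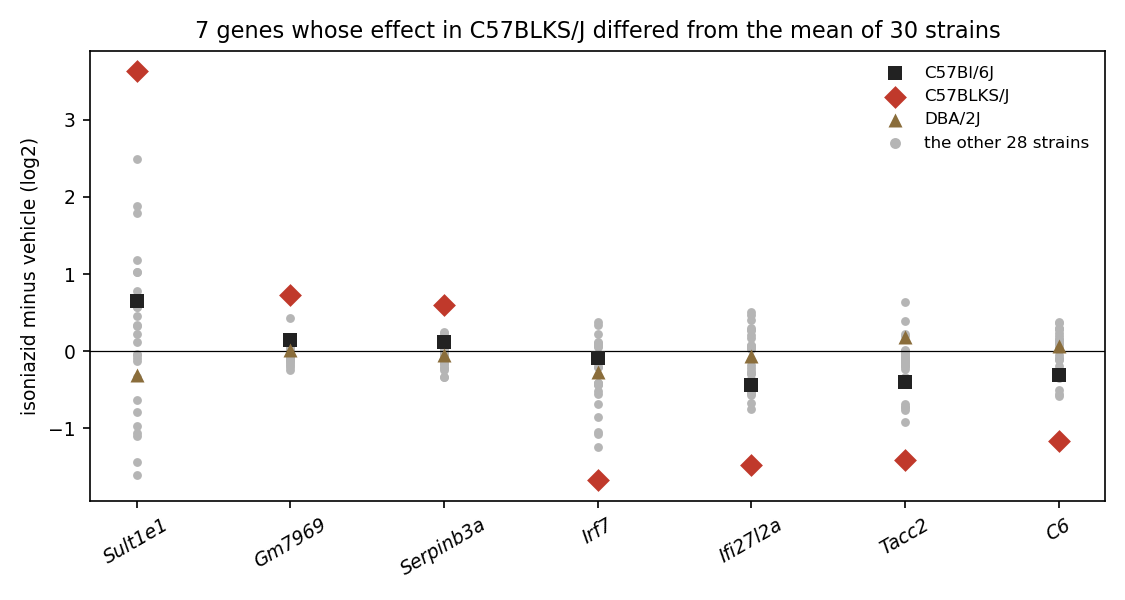
Isoniazid effect (isoniazid minus vehicle, log2, y axis) of the 7 genes (x axis) whose effect in C57BLKS/J differed from the mean effect of the other 30 strains, 1 point per strain; red diamond C57BLKS/J, black square C57Bl/6J, brown triangle DBA/2J, grey the other strains. C57BLKS/J lies at 3.63 in Sult1e1, where the next strain lies at 2.49, and below every other strain in Irf7, Ifi27l2a, Tacc2 and C6.

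These tests take animals as the replicates. With the strain as the replicate, which sets C57BLKS/J against the spread of the other strains, 0 genes passed in limma and 357 had an unadjusted p under 0.05. Against the other 12 steatosis strains alone 18 genes passed, including all 7.

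Across all 18146 genes the C57BLKS/J effect correlated with the mean effect of the other 30 strains at Pearson r of 0.53. This ranked 4 of 31 when each strain was set against the mean of the rest, where r ran from 0.14 to 0.58. Genes are not independent replicates, and the strains share no animals. The 5 strains with the most similar effects were C57BR/cdJ (r = 0.41), CE/J (0.41), A/J (0.39), NOD/LtJ (0.37) and AKR/J (0.37). Of these CE/J was coded as a steatosis strain.

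The parent strains allow closer comparisons, since C57Bl/6J was coded without steatosis and DBA/2J with it. Each was represented by 4 vehicle and 4 isoniazid animals. Against C57Bl/6J no gene differed at an adjusted p under 0.05 in limma (0%), and 1067 had an unadjusted p under 0.05. The smallest p-values belonged to Ppil3, Nif3l1, Arid3b, Mvd and Smyd4. Mvd, an enzyme of cholesterol synthesis, had an effect of 2.09 in C57Bl/6J and 0.31 in C57BLKS/J, a difference of -1.78 (adjusted p = 0.515). The Sult1e1 effect was 0.65 in C57Bl/6J, with an interval of the difference from 1.19 to 4.76 (95%, unadjusted) and an adjusted p of 0.597.

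Against DBA/2J 22 genes differed (0.121%), 9 above (0.0496%) and 13 below (0.0716%), and 1592 had an unadjusted p under 0.05. Sult1e1 again led, with 3.63 in C57BLKS/J and -0.30 in DBA/2J (adjusted p = 0.0321). The cholesterol synthesis genes Idi1 and Msmo1 ran in opposite directions in the strains, at -1.56 and -1.14 in DBA/2J and 3.06 and 2.67 above that in C57BLKS/J (adjusted p = 0.0321 and 0.0400). Aldoc differed by 1.88 (adjusted p = 0.00994). Slc22a29, an organic anion transporter, differed by 2.52 (adjusted p = 0.00244), with 0.62 in C57BLKS/J and -1.90 in DBA/2J. Its C57BLKS/J effect was 0.29 without vehicle animal 1, and the difference was then 2.19.

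In the other direction, Mlkl, the executor protein of necroptosis, had an effect of -0.55 in C57BLKS/J and 1.62 in DBA/2J (adjusted p = 0.00536). Lonp1, a mitochondrial protease, had -0.04 and 1.04 (adjusted p = 0.00536), and App, the amyloid precursor protein, -0.31 and 1.00 (adjusted p = 0.00662). Cyp7b1, an oxysterol hydroxylase, had -0.58 and 1.13 (adjusted p = 0.0137), and it read 9.89 in vehicle animal 1 against 8.44 to 8.73 in the other 3. Its effect without that animal is not given here. Tacc2 fell in C57BLKS/J and had 0.18 in DBA/2J (adjusted p = 0.0137). With only the 16 arrays of the strains compared in the fit, none of these differences passed, with 1480 genes at an unadjusted p under 0.05. Over all 16 other settings the differences of Sult1e1, Idi1, Msmo1 and Cyp7b1 lost their calls in 8, 7, 9 and 4. The other named differences from DBA/2J each lost theirs in 1 or 2.

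The lists set the strains side by side. The median of the cholesterol genes was 0.43 in C57BLKS/J, 1.17 in C57Bl/6J and -0.72 in DBA/2J, the parents being the highest and lowest of the other 30 strains. The macrophage median was -1.12, -0.08 and -0.15. Here C57BLKS/J was the lowest of all 31 strains, below CE/J at -0.93, while SJL/J was the highest at 0.64. C57BLKS/J was also the lowest for tubulins and actin cytoskeleton, at -0.21, with AKR/J next at -0.15. The same held for bile duct markers, at -0.17, where KK/HIJ also lay at -0.17. For thyroid hormone responsive genes C57BLKS/J was the highest, at 0.21, with SWR/J next at 0.15. The interferon median was -0.70, -0.39 and -0.33. These medians are descriptions, and the differences of the medians were not tested. The tubulin, bile duct and thyroid lists are named because C57BLKS/J was the extreme strain in them. With many lists measured, any strain can be the extreme in a few by chance.

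**Figure D5:**
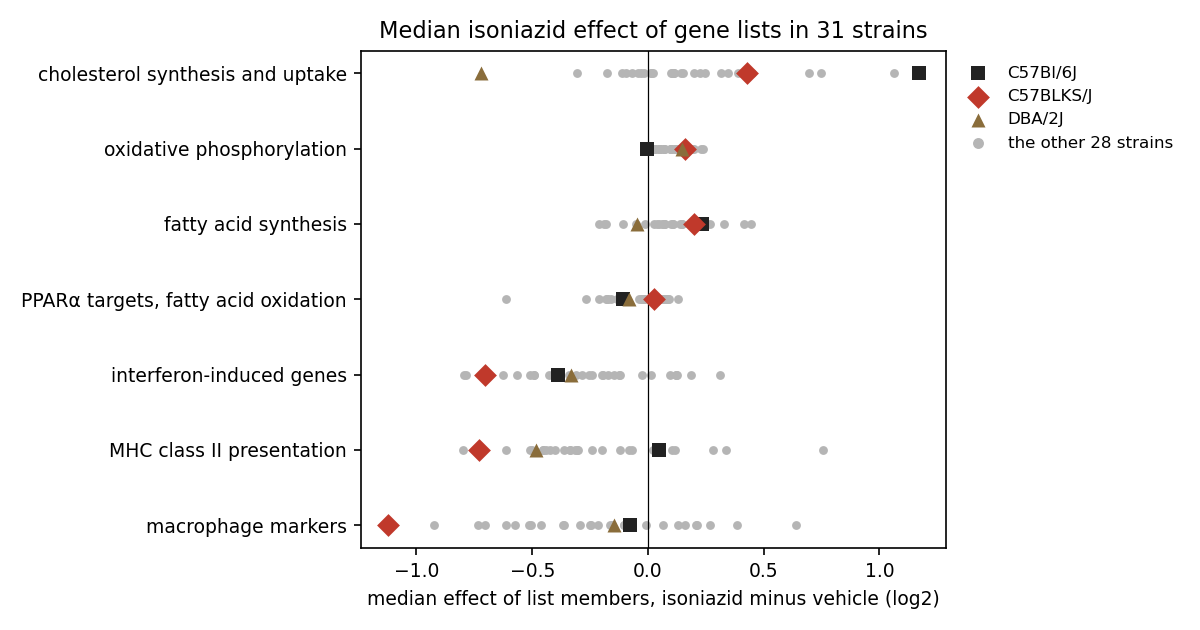
Median isoniazid effect of the members of 7 gene lists (x axis, isoniazid minus vehicle, log2) in each of 31 strains, 1 point per strain and list (y axis); red diamond C57BLKS/J, black square C57Bl/6J, brown triangle DBA/2J, grey the other strains. C57BLKS/J is the lowest strain for macrophage markers at -1.12 and lies between its parents for cholesterol synthesis, at 0.43 against 1.17 and -0.72.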

How the data were processed

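Liver RNA of each animal was labelled with a 3' in vitro transcription kit and hybridised to an Affymetrix mouse array, 1 array per animal, per the labels' protocols. The authors deposited log2 expression values for each probe set. The submitters' processing notes name RMA and Affymetrix Power Tools, without versions in the sources used here. RMA equalises the arrays' distributions, so a shift common to all genes is removed and low values are compressed. Precision is limited by the number of arrays.

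Of 44721 probe sets, 34717 carry 1 gene symbol in the platform annotation, 872 several and 9072 none, and 60 are controls. They gave 18146 genes, each read from the probe set that was brightest over all arrays where it had several (8949 genes). Of the named probe sets 34514 were matched by Entrez number to the RefSeq table of GRCm38.p6, and no symbol changed. limma 3.58.1 in R 4.3.3 (lmFit and eBayes) was fitted to all 235 arrays in 62 groups of strain and treatment, with 173 residual degrees of freedom. Its contrasts were the C57BLKS/J effect and the difference of that effect from the unweighted mean of the other 30 strains, from C57Bl/6J and from DBA/2J. P-values are two-sided and were adjusted by Benjamini-Hochberg over all genes, with a call at an adjusted p under 0.05. The replicates are separate animals.

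The members, gene lists and tests were chosen with earlier results of these data known. The genes named follow a rule: the 12 largest changes each way among called genes whose groups do not overlap, the called genes or smallest p-values of the other comparisons (up to 10 or 5 each way), up to 4 members per list and chosen genes for lipids, drug handling and heme. Some genes outside it are marked where they appear. Others are not, among them Sqle, Per2, Timd4, Marco, Itgam, Ccr2, C1qb, C1qc, Csf1r, Lyz2, Ifit3 and Cxcl10. Sult3a1, Cyp4a12a and Hsd3b5 were read after vehicle animal 1 was seen to stand apart. The fit was tested on simulated data. The alternatives were the arrays of the strains compared alone, scan date as a term, a block on strain and animal number, the mean of probe sets, genes under the 40th percentile left out, median centring, trend and robust eBayes, a 1.5-fold limit, other reference strains, the strain as replicate, each animal left out and, added after seeing the data, the 21 arrays of narrow spread left out. Same-numbered vehicle and isoniazid animals of C57BLKS/J did not deviate together.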

Additional observations from a re-analysis of the deposited data

Results flagged for a closer look

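Within the groups of 4 animals, 15 of 210 gene-and-group sets named in the text had 1 animal further from the rest than Dixon's 95% limit allows. Chance flags about 1 in 20 such groups. Vehicle animal 1 was flagged in 4 genes, at 6.53 in Cyp2b13, 5.86 in Cyp2c39, 5.39 in Sult3a1 and 8.14 in Cyp4a12a. Isoniazid animal 2 was flagged in 7, at 8.28 in Idi1, 7.99 in Elovl6, 9.49 in Fads2, 10.12 in Gclc, 8.68 in Nat2, 14.44 in Alb and 14.16 in Apoa1. Isoniazid animal 4 read 6.00 in Nfil3 and 7.06 in Psat1, isoniazid animal 1 read 12.41 in Sult3a1, and vehicle animal 3 read 3.61 in Psat1. The range of the other 3 animals of each group is narrow in Alb, Apoa1 and Gclc, where the flagged animal lies within 0.2 log2 units of them.

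The effect in C57BLKS/J differed from the mean of the other 30 strains by test in 7 genes. The differences were 3.42 for Sult1e1, 0.73 for Gm7969, 0.63 for Serpinb3a, -1.14 for C6, -1.24 for Tacc2, -1.34 for Ifi27l2a and -1.39 for Irf7. The effect differed from that of DBA/2J by 3.93 for Sult1e1, 3.06 for Idi1, 2.67 for Msmo1, 2.52 for Slc22a29 and 1.88 for Aldoc. In the other direction it differed by -1.08 for Lonp1, -1.32 for App, -1.60 for Tacc2, -1.71 for Cyp7b1 and -2.17 for Mlkl.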

How the results depend on the processing

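The sign of the effect was the same in all 16 refitted settings for each of the 168 genes called in C57BLKS/J. The shared sign is a description, because the genes were picked for a large change in these animals. Of the 168, 15 were called in every setting. No named difference reversed its sign after being called. With 1 animal left out, the C57BLKS/J count ran from 57 to 141, the count against the other 30 strains from 2 to 11, that against C57Bl/6J from 0 to 1 and that against DBA/2J from 7 to 35. The macrophage count ran from 0 to 8 and the interferon count from 3 to 8. Leaving out vehicle animal 1 gave 104 genes in C57BLKS/J and 11 against the other 30 strains. Without the 21 arrays of narrow spread, none of them of C57BLKS/J, 377 genes were called in C57BLKS/J, all 168 among them, 16 against the other 30 strains and 42 against DBA/2J.

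Against the other 30 strains the count was 18 with the other steatosis strains as the reference and 0 with the strain as the replicate. Against DBA/2J it was 0 with the 16 arrays of the strains compared, 10 with scan date as a term and 38 with dim genes left out (10888 genes tested). The mean array median was -0.04 in isoniazid relative to vehicle animals, so median centring raised each effect by that amount and moved the C57BLKS/J split from 78 higher and 90 lower to 126 and 89. The cause of these moves was not tested.

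With the replicate block, which takes strain and animal number together, 135 genes were called in C57BLKS/J, 7 against the other 30 strains and 14 against DBA/2J. The numbers do not pair the animals: deviations of same-numbered animals correlated across genes at r of -0.07, -0.09, 0.01 and -0.07. The 4 animals per group and the low signal of genes such as Serpinb3a limit what can be called.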

Other observations

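Genes that interferons induce but that were not on the list were also among the 90 that fell, named here after their values were seen. Rtp4 changed by -1.28, Zbp1 by -1.09, Rnf213 by -0.82, Bst2 by -0.71 and Adar by -0.55, against mean effects of -0.49, -0.18, -0.16, -0.24 and -0.12 in the other 30 strains. The lysosomal proteases Ctsc, Tpp1, Dpp7 and Ctsz changed by -0.77, -0.59, -0.71 and -0.41. Called subunits of mitochondrial complex I outside the oxidative phosphorylation list rose by small amounts, Ndufb10 by 0.37, Ndufc2 by 0.32 and Ndufb7 by 0.30. These subunits, the proteases and Dmgdh were also named after their values were seen, and uncalled subunits are not covered. Dmgdh, an enzyme of choline and folate metabolism, rose by 0.61 from 10.73 to 11.08 under vehicle to 11.34 to 11.79 under isoniazid.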
